A study of Rattus norvegicus with 16 samples.

Results

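The genes described are Sncg, S100b, Nnat, Tusc5, Plin and Mmd, 6 of the 22517 gene symbols measured. They were selected on their FPKM values in these libraries, as genes other than adipokines that were very abundant in epididymal fat and close to 0 in liver. Their difference between the tissues is therefore a description and carries no test. The effect of the feed and the spread between fat libraries were not criteria of the choice, which was made with earlier results of these data known. Liver and epididymal fat were taken from 8 obese male Zucker rats of the strain ZDF/GmiCrl-fa/fa, all of which are homozygous for a defective leptin receptor, and no lean rats are among the groups. From 9 to 11 weeks of age, for 2 weeks, the rats received Purina 5008 feed with R-α-lipoic acid (LA) or were pair-fed (PF) the same feed without it. Pair-feeding is meant to match the amount eaten between the groups. No record of food intake was used here. The dose is not given in the sources used here. There were 4 biological replicates for each combination of tissue and feed, hence 16 libraries, and the labels do not say which liver and fat libraries share a rat.

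White adipocytes store triglyceride in a single large lipid droplet and release it on demand, and take up glucose through the insulin-regulated transporter Slc2a4 (GLUT4). Plin (perilipin 1, now Plin1) coats that droplet and controls the access of lipases to it, and Tusc5 (now Trarg1) is a membrane protein of the vesicles that carry Slc2a4. Sncg (gamma-synuclein) and S100b (a calcium-binding S100 protein) are best known from neurons and glial cells, and both are also expressed by adipocytes. Nnat (neuronatin) is an imprinted gene, read from the paternal copy, that encodes a small membrane protein of the endoplasmic reticulum. Mmd (monocyte to macrophage differentiation-associated) encodes a membrane protein of the PAQR family, to which the adiponectin receptors also belong.

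The sequences around the start sites of Sncg and S100b are shown because the pair shares a stretch of bases there. A promoter window, from 250 bases before to 50 bases after the annotated start, was found for 4 of the 6 genes (Sncg, S100b, Plin1 and Mmd) among RefSeq promoters of assembly GRCr8. The Sncg window is chr16:9711287-9711586 on the minus strand, and the S100b window is chr20:12381032-12381331 on the minus strand. Both are printed 5′ to 3′ along the gene, and the capitals mark the longest run that the pair has in common.
Sncg: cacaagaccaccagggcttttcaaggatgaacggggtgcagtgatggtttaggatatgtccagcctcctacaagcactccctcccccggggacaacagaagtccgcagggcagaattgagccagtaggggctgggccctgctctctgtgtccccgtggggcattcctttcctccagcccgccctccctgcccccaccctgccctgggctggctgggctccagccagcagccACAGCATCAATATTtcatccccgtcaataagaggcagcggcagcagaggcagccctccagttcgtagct
S100b: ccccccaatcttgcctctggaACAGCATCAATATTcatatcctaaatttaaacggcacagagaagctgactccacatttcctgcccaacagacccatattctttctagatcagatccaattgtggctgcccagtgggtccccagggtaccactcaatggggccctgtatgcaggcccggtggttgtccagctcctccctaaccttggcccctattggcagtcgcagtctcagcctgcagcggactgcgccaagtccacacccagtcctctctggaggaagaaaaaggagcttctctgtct
The shared run ACAGCATCAATATT is 14 bases long and lies on the same strand of both genes. Its first base is at position -19 relative to the start of Sncg and at -229 relative to that of S100b. Of the 33469 promoter windows in the table, 2 (0.00598%) hold the run on either strand, those of Sncg and S100b. The last 10 bases of the run, CATCAATATT, were held by 25 windows (0.0747%). The run was picked after the sequences had been compared, and is a description of letters only. The other pairs among the 4 windows shared runs of 8 to 10 bases.

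Named promoter motifs were searched on both strands of the 4 windows. The TATA box, as TATAAA, was in none of them and in 14.2% of all windows. The CCAAT box, as CCAAT, was in 37.5% of all windows, and the S100b window held 3 copies while those of Plin1 and Mmd held 1 each and that of Sncg none. AGGTCA, the nuclear receptor half-site, was in none of the 4 and in 16.2% of all. The C/EBP core, searched as TTGCNNAA, was in the Plin1 window at -77 and in 10.6% of all windows. GC content was 61.7% for Sncg, 54.0% for S100b, 56.0% for Plin1 and 75.0% for Mmd.

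**Figure D1:**
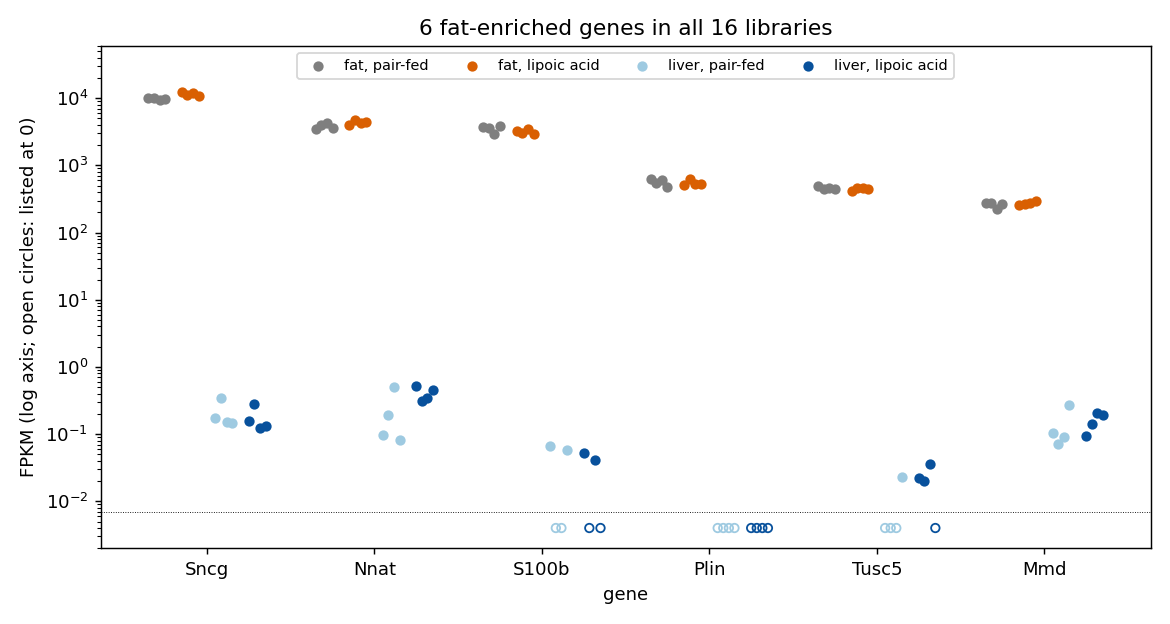
Level of each of the 6 genes in all 16 libraries, in FPKM (fragments scaled to transcript length and library size) on a log axis, by tissue and feed, with each point 1 library. The fat libraries lie between 225 FPKM (Mmd) and 12557 FPKM (Sncg), and no liver library reaches 1 FPKM for any of the genes.

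In fat, the order of the mean levels was Sncg, Nnat, S100b, Plin, Tusc5 and Mmd. FPKM values are scaled to transcript length, so levels can be set side by side between genes. Sncg had a mean of 10731 ± 1109 FPKM (SD, n = 8 fat libraries), the 3rd highest of the 22517 symbols. Nnat followed at 4077 ± 424 FPKM (rank 8), and S100b at 3332 ± 350.5 FPKM (rank 11). Plin had 555 ± 55.1 FPKM (rank 150), Tusc5 454 ± 20.6 FPKM (rank 182) and Mmd 267 ± 20.1 FPKM (rank 316). Together the 6 genes made up 3.21% to 3.56% of the summed FPKM of a PF fat library and 3.47% to 3.86% of an LA fat library.

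Some neighbours in that order had ranges that overlapped across libraries. Nnat and S100b overlapped in PF fat, at 3510 to 4320 and 2965 to 3858 FPKM, and did not overlap in LA fat, at 3969 to 4757 and 2944 to 3452 FPKM. Plin and Tusc5 likewise overlapped in PF fat, at 479 to 620.1 and 445 to 490 FPKM, and did not in LA fat, at 512 to 635 and 419 to 467 FPKM. Within single libraries, Sncg was above Nnat, S100b above Plin, Plin above Tusc5 and Tusc5 above Mmd in every fat library. Nnat was above S100b except in PF replicates 1 and 4.

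In liver, Plin was listed at 0 in all 8 libraries. Tusc5 was listed at 0 in 3 PF livers and at 0.0229 FPKM in the fourth, and under LA at 0.0225, 0.0202, 0.0363 and 0 FPKM. S100b was listed at 0.0673, 0, 0 and 0.0574 FPKM in PF liver and at 0.0515, 0, 0.0416 and 0 FPKM in LA liver. These 3 genes were thus at or next to the lowest value a library can hold. A value of exactly 0 can also be a failed estimate, since the abundant liver transcripts Alb and Tf are listed at 0 in all 8 livers too.

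Sncg was detected in every liver, at 0.173, 0.347, 0.150 and 0.148 FPKM under PF and 0.155, 0.278, 0.125 and 0.134 FPKM under LA. Divided by the relative worth of 1 fragment in each library, these values were 1 step in 6 livers and 2 steps in PF replicate 2 and LA replicate 2, each within 0.05 of a whole number. A step is the smallest of the values, which need not be a single fragment. If steps are fragments, the 8 livers held 10 of them (95% exact Poisson interval 4.8 to 18.4, counting error only), against 61400 to 86100 in a single fat library. The ratio of fat to liver was then 56800 (30900 to 118000).

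Nnat was the highest of the genes in liver, at 0.0966, 0.193, 0.503 and 0.0824 FPKM under PF and 0.518, 0.310, 0.349 and 0.447 FPKM under LA. In steps these were 1, 2, 6 and 1 under PF and 6, 4, 5 and 6 under LA, 31 in all (21.1 to 44.0), and the ratio of fat to liver was 13100 (9200 to 19200). The feeds overlapped through PF replicate 3. Mmd, at 0.106, 0.0704, 0.0916 and 0.270 FPKM under PF and 0.0944, 0.141, 0.203 and 0.190 FPKM under LA, overlapped as well. No member was tested for feed in liver, since none reached 1 FPKM in any of the 8 livers, where 4.48% of the 9710 genes tested passed.

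RNA of liver was looked for in fat by hepatocyte markers. In fat, 10 hepatocyte markers stood at 0.469% to 0.549% of their mean level in liver (median 0.510%), and by library the median was 0.0974% to 0.963%. In liver, the means of the 6 genes were 0% (Plin) to 0.0546% (Mmd) of their means in fat, with Sncg at 0.00176% and S100b at 0.000817%. The 6 genes were chosen for being close to 0 in liver. Their percentages therefore do not show how much fat RNA the livers held, and are not comparable with those of the hepatocyte markers.

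**Figure D2:**
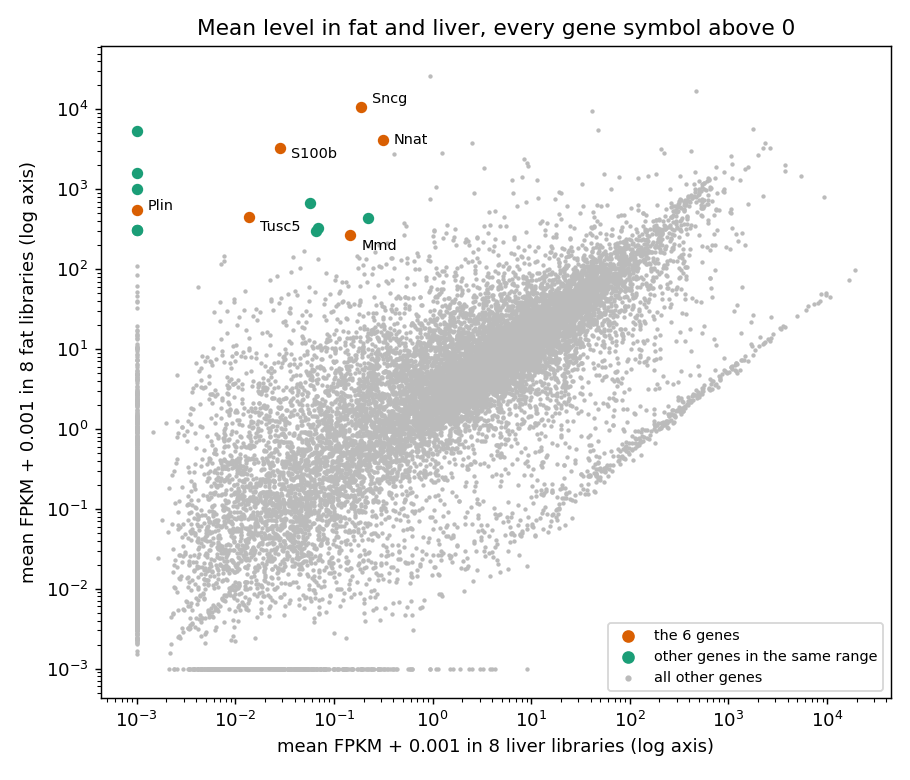
Mean level of each gene symbol in the 8 fat libraries against its mean in the 8 liver libraries, in FPKM on log axes after a small offset for values of 0, with the 6 genes named. They sit at the upper left, in the range of 316 genes at or above the fat mean of Mmd, of which 15 were at or below the liver mean of Nnat.

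Of the 316 genes whose mean in fat was at or above that of Mmd, 15 had a mean in liver at or below that of Nnat, among them the 6 described. The 15 also hold Alb and Tf, whose listing at 0 in liver can be a failed estimate. The others with the highest fat means were the adipokines Adipoq (adiponectin, 5356 FPKM), Lep (leptin, 1617 FPKM) and Retn (resistin, 1017 FPKM). All 3 were listed at 0 in every liver. Genes just outside these limits were Cbr3, at 198 FPKM in fat and 0.287 FPKM in liver, and Lpl, the lipase that clears triglyceride from blood, at 2785 FPKM in fat and 0.401 FPKM in liver.

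Feeding with LA changed none of the 6 genes in fat by limma at an adjusted p under 0.05 (all adjusted p = 1), and none had an unadjusted p under 0.05. Over all 11501 genes tested in fat, 2 passed (0.0174%) and 451 had an unadjusted p under 0.05 (3.92%). Sncg had the largest difference of the 6, and S100b, Tusc5 and Plin had lower means under LA. All differences are on the log2(FPKM + 1) scale, LA minus PF. Centring the libraries on adipocyte markers raised all 6 differences, to 0.37 for Sncg, 0.32 for Nnat, 0.22 for Mmd, 0.13 for Plin, 0.09 for Tusc5 and -0.01 for S100b, and the median of all genes to 0.16. The lowest of the 15 marker differences were those of Thrsp (-0.68), Lpl (-0.57), Gpd1 (-0.54) and Slc2a4 (-0.425). The median of the 15 was -0.09, and 5 of them were positive. The centring thus rests in large part on Thrsp, Lpl, Gpd1 and Slc2a4, and is no measure of adipocyte content. Fewer cells of a type and less RNA per cell cannot be told apart in such bulk samples.

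**Figure D3:**
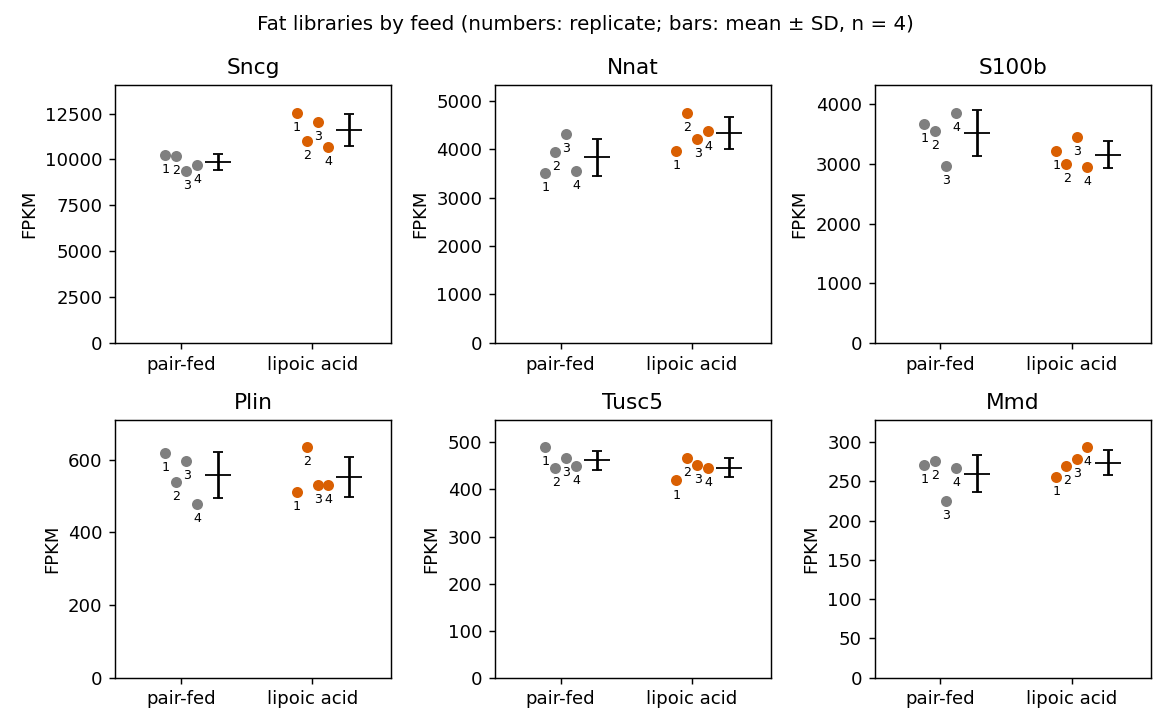
Level of each gene in the 8 fat libraries, in FPKM on an axis of its own, with points numbered by replicate and bars for the mean and SD of 4 libraries per feed. The feeds are apart for Sncg, at 9351 to 10235 FPKM under PF and 10696 to 12557 FPKM under LA, and overlap for the other 5.

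Sncg stood at 10235, 10215, 9351 and 9716 FPKM in PF fat and at 12557, 11022, 12054 and 10696 FPKM in LA fat. All 4 LA libraries were above all 4 PF libraries. The means were 9879 ± 426 and 11582 ± 870.4 FPKM (SD, n = 4 each), 17.2% higher under LA. The log2 difference was 0.23 (SE 0.14, 95% interval -0.08 to 0.53, limma adjusted p = 1, unadjusted 0.129). That SE draws on the variance trend over all genes as well as on Sncg itself. The residual SD of Sncg alone was 0.09, against a median of 0.20 among the 316 genes at or above the fat mean of Mmd. A two-sided exact permutation test gave p = 0.0286, the smallest that the 70 arrangements of 4 against 4 allow, and 0.172 after Benjamini-Hochberg adjustment over the 6 genes. Among all genes tested in fat, 2.08% did not overlap between the feeds, and 1.32% did so with LA higher. As a share of the summed FPKM of its library, Sncg took 1.90%, 1.73%, 1.86% and 1.74% in PF fat and 2.08%, 2.11%, 2.08% and 2.03% in LA fat, again without overlap.

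Nnat stood at 3510, 3945, 4320 and 3542 FPKM in PF fat and at 3969, 4757, 4210 and 4367 FPKM in LA fat. PF replicate 3 lay within the LA range, so the feeds overlapped. The log2 difference was 0.18 (SE 0.13, interval -0.11 to 0.47, limma adjusted p = 1; exact permutation p = 0.114).

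S100b stood at 3670, 3546, 2965 and 3858 FPKM in PF fat and at 3218, 2999.7, 3452 and 2944 FPKM in LA fat. The mean was lower under LA by 10.2%, and the feeds overlapped through PF replicate 3, the lowest PF library. The log2 difference was -0.15 (SE 0.13, interval -0.44 to 0.14, limma adjusted p = 1; exact permutation p = 0.171). PF replicate 3 was at the same time the highest PF library for Nnat. The ratio of S100b to Nnat was 1.05, 0.899, 0.686 and 1.09 in PF fat and 0.811, 0.631, 0.820 and 0.674 in LA fat.

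Plin, the droplet coat protein, stood at 620.1, 540.2, 596 and 479 FPKM in PF fat and at 512, 635, 531 and 530.2 FPKM in LA fat. The ranges covered each other almost wholly, with a log2 difference of -0.02 (SE 0.12, interval -0.28 to 0.25, limma adjusted p = 1; exact permutation p = 0.914). Its sign was not stable: it lay between -0.09 and 0.04 when each library was left out in turn, and turned with the adipocyte centring.

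Tusc5, of the Slc2a4 vesicles, stood at 489.6, 445, 466 and 449 FPKM in PF fat and at 419, 467, 453 and 445 FPKM in LA fat. The log2 difference was -0.05 (SE 0.09, interval -0.25 to 0.14, limma adjusted p = 1; exact permutation p = 0.40), and its sign turned with the adipocyte centring. Mmd stood at 271, 276, 225 and 267 FPKM in PF fat and at 255, 269, 278 and 293 FPKM in LA fat. Its log2 difference was 0.08 (SE 0.10, interval -0.14 to 0.30, limma adjusted p = 1; exact permutation p = 0.371), with PF replicate 3 the lowest of the 8 libraries.

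**Figure D4:**
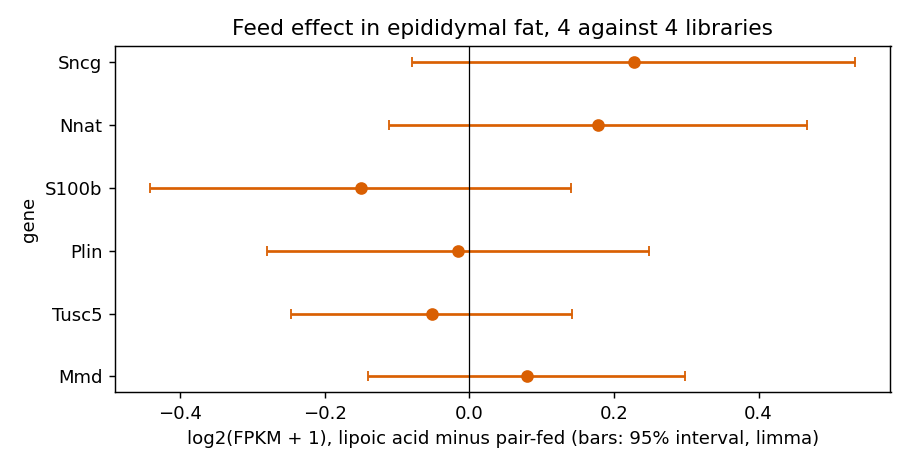
Difference between the feeds in fat for each gene, as LA minus PF on the log2(FPKM + 1) scale, with the 95% interval of the limma fit. Every interval includes 0, from Sncg at 0.23 (-0.08 to 0.53) to S100b at -0.15 (-0.44 to 0.14).

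A fit over all 16 libraries compared the feed effect between fat and liver, and 46 of 12079 genes passed (0.381%). It is no test for the 6 genes described, and their values in it are not read as an effect of the feed. All entered the fit through fat alone, with no liver library at 1 FPKM, and for Plin the difference between tissues was the same -0.02 as in fat.

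The spread between fat libraries, on the scale as deposited, was below the median of the 316 genes at or above the mean of Mmd for all 6, and not for Nnat and Plin after adipocyte centring. Within a feed, the coefficient of variation was 4.40% under PF and 4.47% under LA for Tusc5, and 4.31% and 7.52% for Sncg. It was largest for Plin, at 11.3% and 10.1%, and for S100b under PF, at 11.0%. The residual SD on the log2 scale was 0.06 for Tusc5 and 0.09 for Sncg, which are at the 1.27th and 3.48th percentile among those 316 genes. Their median was 0.20. Mmd (0.11), Nnat (0.13), S100b (0.14) and Plin (0.15) lay between the 8.86th and the 21.2nd percentile. After centring on adipocyte markers the SD was 0.25 for Nnat, 0.23 for Plin, 0.16 for Tusc5, 0.12 for Mmd, 0.10 for Sncg and 0.06 for S100b, and the median of the 316 genes was again 0.20.

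Over the 8 fat libraries, after removal of the feed means, the log2 values of Tusc5 and Plin had a Pearson r of 0.80 and those of S100b and Nnat an r of -0.81. These are descriptions over libraries that share depth and cell make-up. Among 4899 named genes with a mean of at least 10 FPKM in fat, the pattern most like that of Sncg was that of Fabp4, the fatty acid carrier of adipocytes (r = 0.98, 26480 FPKM in fat), followed by Sil1 and Fam108b1 (both 0.98). For S100b these were Gfm1 (0.99), Tsg101 (0.98) and Dynlt3 (0.98), and for Nnat they were Cdc23 (0.97), Ltbp3 (0.96) and Fbln1 (0.96). Tusc5 was most like Brwd2 (0.97), Slc37a3 (0.97) and Copa (0.96). Plin was most like Ehd2 (0.96), Smarca4 (0.96) and Dpysl3 (0.96), and Mmd like Mars (0.94), Exoc3 (0.91) and G3bp1 (0.91). The best of the 4899 candidates thus reached an r of 0.94 to 0.99 for each of the 6 genes. Without removal of the feed means, r with Sncg was 0.856 for Fabp4 and 0.274 for Fam108b1. It was then 0.487 for Fbln1 with Nnat, 0.39 for G3bp1 with Mmd and 0.987 for Gfm1 with S100b.

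**Figure D5:**
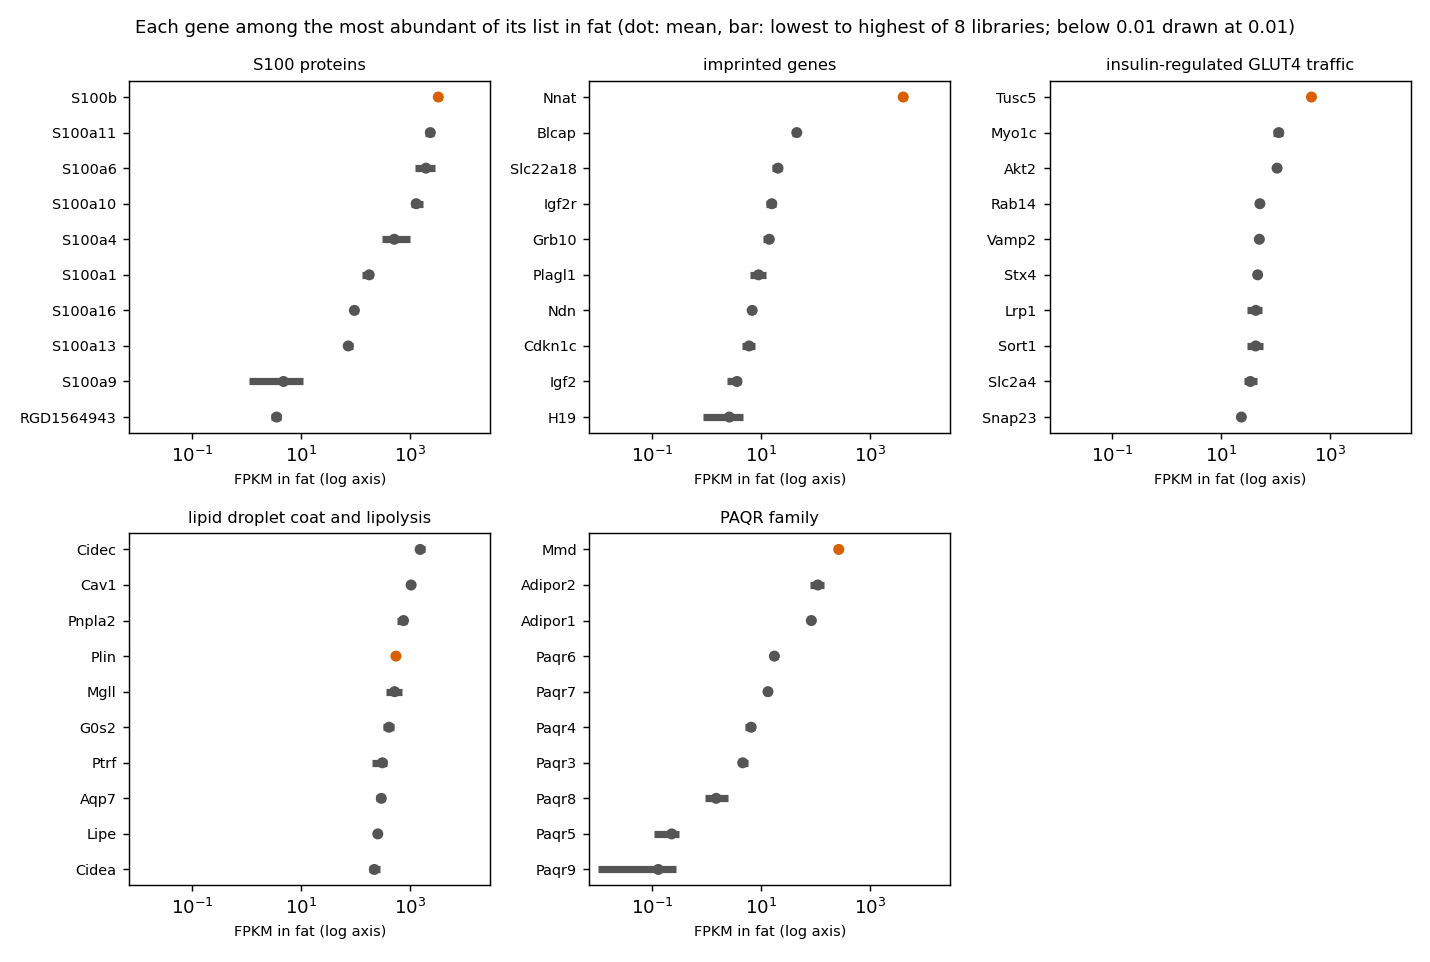
Mean level in the 8 fat libraries of S100b, Nnat, Tusc5, Plin and Mmd beside the members of its family or pathway list, in FPKM on a log axis, with lines from the lowest to the highest library where wide enough to see. Among the listed genes that were matched, S100b, Nnat, Tusc5 and Mmd are the highest of their lists, and Plin is the 4th of 18.

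S100b was the highest of the 16 matched genes in the S100 list, ahead of S100a11 (2382 FPKM), S100a6 (1978 FPKM) and S100a10 (1309 FPKM). That list also holds S100pbp, which is named for binding an S100 protein and is not of the family. Nnat was the highest of the 16 imprinted genes that were matched, ahead of Blcap (45.2 FPKM), Slc22a18 (20.4 FPKM) and Igf2r (15.7 FPKM). Peg3, Mest, Peg10, Sgce and Impact were not matched. Gnas stood at 0.164 FPKM in fat and was listed at 0 in every liver, which can be a failed estimate. In the GRCr8 annotation Nnat overlaps Blcap, S100b overlaps Dip2a and Mmd overlaps LOC134480710. The kit did not mark strand, so reads of overlapping genes could not be separated by strand.

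Tusc5 stood above the other genes of insulin-regulated Slc2a4 traffic, of which the motor protein Myo1c (114 FPKM), the kinase Akt2 (106 FPKM) and Rab14 (51.2 FPKM) were next. Slc2a4 itself had a mean of 34.3 FPKM. Rab10, of the same list, was listed at 0 in every fat library, which can be a failed estimate. Plin was exceeded in the list of droplet coat and lipolysis genes by Cidec (1547 FPKM), which helps droplets fuse, Cav1 (1056 FPKM), of the caveolae, and Pnpla2 (766 FPKM), the first lipase of triglyceride breakdown. In that list Plin4 and Plin5 were not matched, and M6prbp1 was listed at 0 in every fat library, which can be a failed estimate. Mmd stood above the adiponectin receptors Adipor2 (110.2 FPKM) and Adipor1 (83.7 FPKM), and above Paqr6 (17.5 FPKM).

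None of the other genes in these lists passed for feed in fat. In the S100 list, 10 of 11 tested genes had a higher mean under LA, with a median log2 difference of 0.21 against 0.01 over all genes, while S100b had a lower one. S100a4 had 377 ± 71.5 FPKM under PF and 657 ± 287.5 FPKM under LA, and S100a6 had 1614 ± 302.5 and 2341 ± 448 FPKM (SD, n = 4 each). Macrophage markers had a median difference of 0.27 (10 of 10 with a higher mean) and mesothelial markers of 0.47 (8 of 8), and hepatocyte markers of -0.81 (0 of 11). None of these passed, and their part in the values above was not tested. The droplet list had a median of -0.07 (6 of 14 higher), the Slc2a4 traffic list 0.03 (10 of 18), the imprinted list 0.03 (7 of 10) and the PAQR list -0.04 (3 of 7). Targets and regulators of PPAR-gamma, the nuclear receptor that drives adipocyte differentiation, had a median of -0.07 (8 of 18), and adipocyte markers of -0.09 (5 of 15). Fibroblast and preadipocyte markers were at 0.09 (6 of 9), endothelial at -0.07 (0 of 7), Schwann and glial at -0.04 (3 of 8), neuron at 0.06 (3 of 4) and muscle at -0.05 (1 of 2). The list of epididymis and testis had no gene above the filter.

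Between the tissues, where the members themselves were not tested, the rest of each list was set against the share of all genes. A gene passed by limma at an adjusted p under 0.05 and a log2 change over 1. In PF rats 36.3% of all genes were higher in fat and 11.1% lower (47.4% in either direction). Of the 4174 genes higher in fat, 1496 had no liver library at 1 FPKM, so that they entered through fat alone and had to be higher. With the libraries centred on their medians, 2253 genes were higher and 2064 lower, 52.2% of the calls being higher in place of 76.6%. Of 10 tested genes of the S100 list 8 were higher in fat and none lower, and each of the 8 reached 1 FPKM in at least 1 liver. Of 15 droplet genes 11 were higher and 2 lower, and 2 of the 11 entered through fat alone. For Slc2a4 traffic 10 of 18 genes were higher, 3 of them through fat alone, and for the imprinted genes 8 of 10 were higher, 6 of them through fat alone. Both PAQR genes that were higher, of 7 tested, entered that way, so the imprinted and PAQR counts say little. In LA rats, where 36% of all genes were higher and 10.5% lower (46.4% in either direction), the counts higher in fat were 10 of 11 (S100), 10 of 15 (droplet), 11 of 18 (Slc2a4 traffic), 7 of 10 (imprinted) and 2 of 8 (PAQR), with 1, 1, 2, 5 and 2 of these through fat alone. Centring on medians there gave 53.6% of calls higher in place of 77.5%. Without 1 fat library the filter also needs a liver library, and the listed genes called in PF rats went from 116 to between 77 (without PF fat replicate 4) and 80.

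The fat was checked against markers of the other cells in which Sncg and S100b are known. All 15 adipocyte markers were at 1 FPKM or more, with summed levels of 39790 to 50560 FPKM in PF fat and 41160 to 50140 FPKM in LA fat. Against 3332 FPKM of S100b, the Schwann cell gene Sox10 had a mean of 0.0399 FPKM and the astrocyte gene Gfap 0.0973 FPKM. Of the 12 Schwann and glial markers 8 were at 1 FPKM or more, up to 189 FPKM, among them the myelin genes Mbp (39.4 FPKM) and Cnp (27.4 FPKM). The sums were 262 to 279 FPKM under PF and 247.5 to 276 FPKM under LA. Of 13 neuron markers 9 were below 1 FPKM, with Elavl4, Syt1 and Dbh listed at 0, which can be a failed estimate. The other 4 had means of 3.33 to 5.80 FPKM, the highest of them Tubb3 (5.80 FPKM) and Prph (5.38 FPKM), and the sums were 12.5 to 27.1 FPKM under PF and 17.6 to 20.3 FPKM under LA. The markers of epididymis and testis, organs next to this fat depot, summed to 10.0 FPKM in PF fat replicate 4, mostly from Lcn5 (9.61 FPKM). In the other fat libraries they summed to at most 0.689 FPKM. Of these 12 markers 8 were listed at 0 in all PF fat libraries, which can be a failed estimate.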

How the data were processed

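The members and gene lists were chosen with earlier results of these data known. Liver and epididymal fat of 8 rats gave 16 libraries, 4 biological replicates per group by the labels. The limma p-values combine the spread between these animals with a variance trend shared by all genes. Fits that hold both tissues treated fat and liver libraries as independent, although they came from the same 8 rats. Per the labels' protocols, TRIzol and RNeasy columns were used for RNA, and libraries came from the TruSeq V2 kit. That kit keeps no strand information. CASAVA 1.8.2, TopHat and Cuffdiff were used, per the submitters' processing notes. The genome build is not given in the sources used here. Neither are the annotation and settings. FPKM is the unit of the deposited files, made by the authors, with 1 value per symbol and library, per the file headers. Headers number replicates from 0 and labels from 1, and files were matched to samples by the deposit's own record. Depth is unknown, but steps between low values gave the worth of 1 fragment relative to PF liver replicate 1: for liver 0.853 to 1 (PF) and 0.721 to 0.894 (LA), for fat 0.774 to 0.961 (PF) and 0.739 to 0.865 (LA).

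Values were tested as log2(FPKM + 1), a pseudocount of 1, with limma 3.58.1 in R 4.3.3, fitting a trend of variance on mean. Genes entered a fit if 4 or more of its libraries reached 1 FPKM, and p was adjusted by Benjamini-Hochberg over all of them. Fold changes on this scale understate those of low genes. Single genes were also compared by an exact permutation test. Of 17 lists (10 of cell types, 7 of families and pathways), 194 genes were found under their symbol and 5 under an older one, and 13 were not used here; the list for Sncg and some listed genes are not reported here. The genes named were the members, up to 3 other genes of each list with the highest mean in fat, the 3 genes most like each member, and 3 genes of the same range; Cbr3, Lpl, Slc2a4, S100a4, the glial and neuron markers and genes at the limits were named beside this rule, after their values were seen. Replicates held no identical columns, and r across genes within a group was 0.969 to 0.992. On simulated data the fit recovered 79% of log2 changes of 1 and 39% of 0.5 in fat (11392 genes, 6 false calls). There 100 genes of each size were changed, all among the more abundant ones, and noise was drawn for each gene alone. In real libraries deviations are shared between genes and few genes passed in fat, so these rates do not give the power of the real comparison. The other settings tried were median centring, no filter, a pseudocount of 0.1, adipocyte centring, a replicate block, all 16 libraries in 1 model and each library left out. Figures were drawn with matplotlib 3.10.9.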

Additional observations from a re-analysis of the deposited data

Results flagged for a closer look

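A library far from the other 3 of its group was looked for in 22 groups of 4 libraries, and 4 were found. Chance gives about 1 in 20 groups for continuous values. That rate does not hold for the 2 found in liver, where values are 0 to 2 steps and a difference of 1 step is enough. Plin stood at 635 FPKM in LA fat replicate 2, against 512 to 531 FPKM in the other LA fat libraries. Mmd stood at 225 FPKM in PF fat replicate 3, against 267 to 276 FPKM in the others. Sncg stood at 0.347 FPKM in PF liver replicate 2, which is 2 steps where the others hold 1. Tusc5 stood at 0.0229 FPKM in PF liver replicate 4, where the others are listed at 0.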

How the results depend on the processing

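None of the 6 genes passed for feed in fat under any of the 14 alternatives, and adjusted p for Sncg ranged from 0.594 to 1. The number of all genes that passed in fat, 2 as reported, was 1 with a pseudocount of 0.1, 7 with all 16 libraries in 1 model and 0 to 2 with each library left out (0 without LA replicate 2 or 3). In liver 435 genes passed, and 208 to 404 with each library left out (208 without LA replicate 2, 267 without PF replicate 1). For the difference between tissues 46 passed, 22 without the filter and 19 to 60 with each library left out. Sncg kept a positive difference in fat, 0.19 to 0.27 with each library left out and 0.371 after adipocyte centring. That centring also moved Nnat to 0.321, Mmd to 0.223 and S100b to -0.007. Signs turned for Plin in fat (-0.087 to 0.037 with each library left out; 0.128 with adipocyte centring) and for Tusc5 (0.091 with adipocyte centring), both centred values below the median of all genes, 0.158. The difference between tissues is no test for these genes, since no liver library reached 1 FPKM for any of them. Its values are given only to show how they hang on the settings, and nothing is read from them. With a pseudocount of 0.1 that difference was -0.646 for Nnat, -0.229 for Tusc5, -0.103 for Mmd, -0.076 for S100b and 0.372 for Sncg. With each library left out it was -0.019 to 0.082 for Mmd, -0.144 to 0.021 for Nnat and -0.087 to 0.037 for Plin. With adipocyte centring the residual SD moved from 0.064 to 0.156 for Tusc5, 0.127 to 0.252 for Nnat, 0.153 to 0.229 for Plin and 0.138 to 0.0606 for S100b. The causes were not tested.

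With a replicate block 1 gene passed in fat, and no call of the 6 genes changed. Same-numbered PF and LA fat libraries deviated with r of -0.0612, -0.27, -0.372 and -0.426, so the numbers were taken as names and not as pairs. Depth limits what can be said of liver, where Plin is at 0 and the other genes hold few steps.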
